A study of Auxenochlorella pyrenoidosa with 12 samples.

Results

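The comparison described here sets cultures of a green alga exposed to the highest chronic dose of peroxymonosulfate against unexposed cultures. RNA came from whole cells of Auxenochlorella pyrenoidosa, also known as Chlorella pyrenoidosa. Exposed cultures received potassium peroxymonosulfate at 8.49 mg/L, which is 0.5 of the EC50, the concentration with a median effect on the alga. Control cultures received none. The labels name no strain, genotype or second agent, and the sources used here do not give the day of RNA sampling. There were 3 libraries at 0.5 EC50 and 3 controls. Another 6 libraries, 3 at 3.40 mg/L (0.2 EC50) and 3 at 1.70 mg/L (0.1 EC50), entered the fit to estimate the spread between libraries. Levels are given in FPKM, a fragment number set relative to the length of a contig and the size of its library. Contigs are transcript sequences assembled from the reads. The members are the 18171 contigs, of 29140 in the deposited table, whose mean was at least 1 FPKM over the 6 libraries at 0.5 EC50 and control. The table pairs no contig with a gene name and no sequence is given for it, so contigs appear by identifier and no pathway can be described. The labels do not say whether the 3 libraries of 1 group are from separate cultures. Each p-value therefore sets a difference only against the spread between libraries, which may be technical. For single contigs the main fit estimates that spread from all 12 libraries.

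Peroxymonosulfate is a strong oxidant used in water treatment and disinfection. It attacks organic matter directly, and when activated by metals, heat or light it can give rise to sulfate and hydroxyl radicals. Photosynthetic cells make reactive oxygen in their chloroplasts as a by-product of light capture and hold enzymes and small molecules that remove it. In green algae, oxidants are known to alter the transcription of such antioxidant systems, of the photosynthetic apparatus and of protein repair. Which of these the contigs below encode is not known from the files.

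Control replicate 2 stood apart from the other 5 libraries in some measures and not in others. A set of 294 members had at least 80% of their summed level over the 6 libraries in control replicate 2 alone. These contigs summed to 12776 FPKM there, 2.40% of that library, and their highest level was 4131 FPKM. In control replicates 1 and 3 they summed to 0.165 and 20.7 FPKM. At 0.5 EC50 they summed to 5.26, 0.487 and 2.84 FPKM in replicates 1, 2 and 3. All 294 have names that end in 3. Of the 294, 0 were called, against 9.07% of all members. Their choice by 1 control sets a wide spread within the controls, so this count is largely fixed by the choice. Only 19 other members were held to that extent by 1 library, 14 of them by control replicate 3. Low values in control replicate 2 also clustered less at shared ratios to control replicate 1. The fullest bin of such ratios held 2.89% of 2461 low contigs there, against 4.71% to 6.67% in the other 4 libraries of the comparison. It shares this with 0.2 EC50 replicate 2 and 0.1 EC50 replicates 2 and 3, the 4 libraries whose low values step differently. Its correlation with the other controls across members was 0.919 and 0.882, against 0.937 between control replicates 1 and 3 and 0.945 to 0.958 among the libraries at 0.5 EC50. These correlations are across contigs, which are not independent replicates, and they include the 294 contigs. Other measures set it less apart. Over 2-fold differences were found in 8.39% and 14.6% of members against control replicates 1 and 3, and in 11.1% between those 2. The median absolute log2 difference was 0.255 and 0.268, within the 0.176 to 0.293 among the libraries at 0.5 EC50. Counts are therefore also given without control replicate 2.

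In the deposited values more contigs were higher than lower at the highest dose, and the largest changes were rises. Of the 18171 contigs tested, 1224 rose (6.74%) and 424 fell (2.33%), together 1648 (9.07%), in limma's moderated test of log2(FPKM + 1), two-sided, at a Benjamini-Hochberg adjusted p below 0.05. Among the contigs that rose the median log2 difference was 0.73 and the highest 5.02. Among those that fell the median was -0.86 and the lowest -2.34. A change of at least 2-fold was reached by 361 called contigs that rose (1.99%) and by 156 that fell (0.859%). At least 4-fold, a log2 difference of 2, was reached by 39 rises and 7 falls, and at least 8-fold, a difference of 3, by 13 rises and 0 falls.

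**Figure D1:**
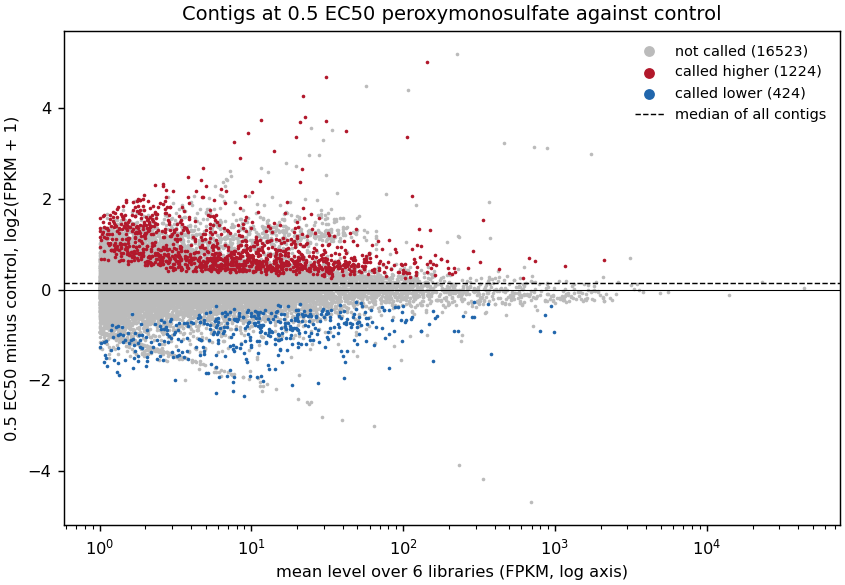
Each point is 1 of 18171 contigs, placed by its mean level over the 6 libraries (FPKM, log axis) and by its difference between 0.5 EC50 and control on the log2(FPKM + 1) scale; red and blue mark the 1224 contigs called higher and the 424 called lower, and the dashed line is the median of all contigs, 0.15. Rises reach 5.02 and falls -2.34 among called contigs, and grey points beyond them at high levels are contigs that differ widely between libraries of a group.

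The balance of rises and falls depends on how the libraries are scaled. The median log2 difference of all members was 0.15 as deposited, 0.03 after median-of-ratios scaling and 0.02 after quantile normalization, a shift of over 0.1. After median-of-ratios scaling 499 contigs were called higher (2.75%) and 738 lower (4.06%). Quantile normalization gave 619 higher (3.41%) and 794 lower (4.37%). Under deposited values and both scalings alike, 443 contigs were called higher and 418 lower. The balance among changes of at least 2-fold moved too, from 361 higher and 156 lower as deposited to 240 and 238 after median-of-ratios scaling and 241 and 260 after quantile normalization. Of the 361 rises 264 were called higher in both scalings at any size, and of the 156 falls 155 were called lower in both. In the deposited values each library at 0.5 EC50 lay above the control mean by a median of 0.127, 0.142 and 0.161 on the log2 scale in replicates 1, 2 and 3. The controls lay at -0.0151, -0.0731 and 0.0655.

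Groups did not overlap for 4347 contigs that were higher at 0.5 EC50 (23.9%) and for 1639 that were lower (9.02%), far more than were called. Among the called contigs, 1223 of the 1224 that rose and all 424 that fell had no overlap between the 3 exposed and the 3 control values. The calls rest on these same values, so this is largely fixed by the test and adds no support. In contrast, 910 contigs with a rise and 363 with a fall of the mean log2 level by at least 2-fold were not called. Leaving out 1 library lowered the total of 1648 by over 1.5 times in 5 of 6 cases. It was 455 without 0.5 EC50 replicate 2, 804 without 0.5 EC50 replicate 3, and 923, 719 and 784 without control replicates 1, 2 and 3. Without control replicate 2, 511 were called higher and 208 lower.

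The 2 rises and 2 falls that moved the most FPKM were taken as named contigs, among called contigs whose groups did not overlap. The separation of exposed and control values in each of the 4 is therefore fixed by the choice. TRINITY_DN561_c0_g1_i1_3 was at 1501, 1796 and 1609 FPKM in control replicates 1, 2 and 3. At 0.5 EC50 it was at 2104, 2768 and 2866 FPKM. All exposed values lay above all control values, with replicate 1 the lowest of the exposed. The means were 1636 ± 149 and 2579 ± 414 FPKM (SD, n = 3), which moved the contig from rank 39 to rank 13 by mean level. The log2 difference was 0.65 ± 0.122 (SE, limma adjusted p = 0.0122). Its call ended after median-of-ratios scaling (log2 difference 0.48, adjusted p = 0.102), without 0.5 EC50 replicate 2 (adjusted p = 0.0554) and in a fit of the 6 libraries alone (adjusted p = 0.0514). Without the 4 libraries whose low values step differently it was also not called (0.72, adjusted p = 0.115). At the lower doses it stood at 1633 ± 57.6 FPKM (0.1 EC50) and 1864 ± 168 FPKM (0.2 EC50; SD, n = 3).

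TRINITY_DN958_c0_g1_i1_3 was at 886, 1035 and 955 FPKM in control replicates 1, 2 and 3. Its exposed libraries gave 1301, 1362 and 1449 FPKM. The exposed libraries were close to one another and all above the controls. Its mean rose from 959 ± 74.7 to 1371 ± 74.6 FPKM (SD, n = 3), a log2 difference of 0.52 ± 0.114 (SE, limma adjusted p = 0.022). The call was lost after median-of-ratios scaling (0.35, adjusted p = 0.141) and when any library of the 2 groups except 0.5 EC50 replicate 1 was left out (adjusted p from 0.0573 to 0.0714). It was also lost without the 4 libraries whose low values step differently (0.57, adjusted p = 0.0819), so this rise stands near the threshold. Its means at 0.1 and 0.2 EC50 were 894 ± 119 and 1045 ± 113 FPKM (SD, n = 3).

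TRINITY_DN1888_c0_g2_i1_4 was at 1285, 1330 and 1237 FPKM in the controls. It was at 745, 606 and 669 FPKM at 0.5 EC50. The 3 exposed values lay far below the narrow range of the controls. The mean fell from 1284 ± 46.3 to 673 ± 69.4 FPKM (SD, n = 3), a log2 difference of -0.94 ± 0.133 (SE, limma adjusted p = 0.00366). Leaving out any 1 library of the 2 groups kept the call, with adjusted p of at most 0.0283. At 0.2 EC50 it stood at 1343, 1169 and 1314 FPKM, which overlaps the controls, and at 0.1 EC50 at 1340, 1694 and 1985 FPKM, which lies above them.

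TRINITY_DN129_c1_g1_i2_4 was at 1058, 1116 and 938 FPKM in control replicates 1, 2 and 3. Its exposed libraries gave 448, 594 and 624 FPKM. Every exposed library was below every control. The mean fell from 1037 ± 90.5 to 555 ± 93.8 FPKM (SD, n = 3), a log2 difference of -0.91 ± 0.178 (SE, limma adjusted p = 0.0141). The call ended without control replicate 2 (-0.86, adjusted p = 0.0679) and without the 4 libraries whose low values step differently (-0.86, adjusted p = 0.0732). At 0.1 and 0.2 EC50 its means were 1182 ± 257 and 869 ± 131 FPKM (SD, n = 3).

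**Figure D2:**
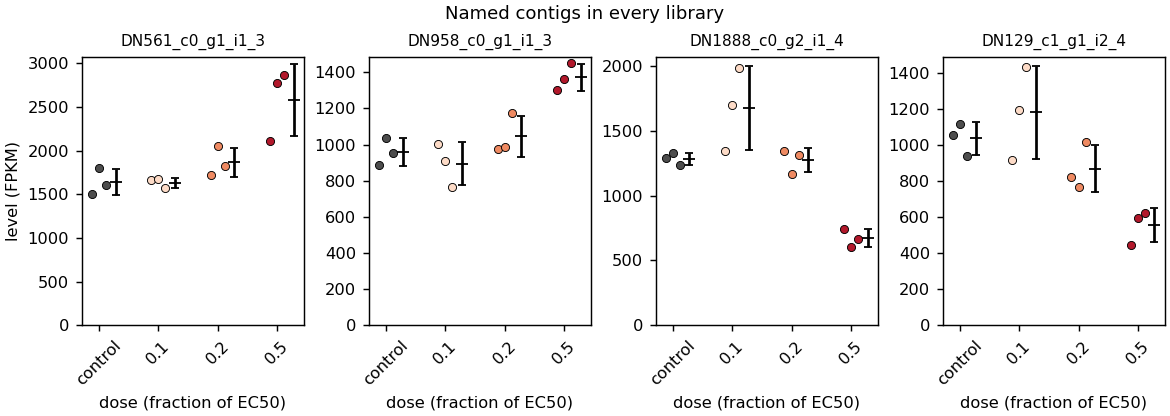
Level (FPKM, from 0) of the 4 named contigs in all 12 libraries by dose as a fraction of the EC50; circles are libraries and bars the mean ± SD of 3. In the 2 panels on the left the libraries at 0.5 EC50 lie above all controls (2104 against 1796 FPKM at the nearest for the first), and in the 2 on the right below them (745 against 1237 FPKM for the first of these). This separation was a condition of the choice.

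The largest fold changes among called contigs were rises. The 13 contigs that rose at least 8-fold had means of 0.664 to 18.0 FPKM in the controls and of 14.8 to 278 FPKM at 0.5 EC50. Their median level was 2.16, 1.54 and 3.82 FPKM in control replicates 1, 2 and 3, and 46.5, 42.7 and 38.4 FPKM in the exposed ones. Over all members the control medians were 3.17, 3.19 and 3.89 FPKM in the same order. At 0.2 EC50 the median of the 13 contigs was 9.83, 5.20 and 12.5 FPKM and at 0.1 EC50 4.37, 3.14 and 4.94 FPKM. They were picked for their rise at 0.5 EC50, so the levels at that dose and in the controls are a description. The levels at the lower doses, read against chosen control values, are a description too. Of the 13, 12 stayed called in both other scalings. In 12 of the 13, replicate 3 was the lowest of the libraries at 0.5 EC50, and in 9 control replicate 2 was the lowest control. Over all 18171 members this held for 5245 and 8480 contigs.

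When limma tested for a change beyond 2-fold rather than for any change, 25 contigs were higher and 1 was lower. The 25 rose by 1.80 to 5.02 on the log2 scale, and all 25 were also called under both scalings for any change. Their median level was 1.87, 1.54 and 2.17 FPKM in the controls, 22.2, 23.7 and 21.0 FPKM at 0.5 EC50, 6.66, 4.45 and 8.23 FPKM at 0.2 EC50 and 3.33, 2.65 and 3.27 FPKM at 0.1 EC50. The set was chosen by a test on these libraries, so its levels at 0.5 EC50 and in the controls are a description. The lower doses entered the spread of that test and are read against chosen control values, so their levels are a description too.

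The 20 largest falls were taken among called contigs without overlap and with a control mean of at least 5 FPKM. They had log2 differences of -2.34 to -1.74. Their means lay between 5.57 and 65.7 FPKM in the controls and between 0.702 and 16.2 FPKM at 0.5 EC50. The 20 largest rises, taken the same way with at least 5 FPKM at 0.5 EC50, had log2 differences of 2.37 to 5.02, from 0.164 to 18.0 FPKM in the controls to between 7.48 and 278 FPKM.

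For the whole set of 361 rises of at least 2-fold, the median level per library was 1.01, 0.841 and 1.08 FPKM in control replicates 1, 2 and 3, against 4.94, 4.91 and 4.51 FPKM in the exposed ones. For the 156 falls it was 8.76, 9.24 and 10.5 FPKM in the controls, against 2.09, 2.43 and 3.43 FPKM in the exposed libraries. Over all members the control medians were 3.17, 3.19 and 3.89 FPKM. Both sets were chosen by these same values, and a rise from under 1 FPKM passed the filter only through the exposed libraries. That the falls started higher in the controls than the rises is therefore in part fixed by the choice. The median of the means at 0.1 and 0.2 EC50 was 1.45 and 2.11 FPKM for the rises and 4.21 and 3.30 FPKM for the falls. Replicate 3 was the highest of the exposed libraries in 108 of the 156 falls, 69.2%, against 35.6% of all members, and replicate 3 was also the highest control in 83, 53.2%, against 45.9% of all members.

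Of the 18171 members, 1956 had a control mean under 1 FPKM and passed the filter through their level at 0.5 EC50, and 1216 had a mean under 1 FPKM at 0.5 EC50 and passed through the controls. Calls were made for 237 of the 1956 and 54 of the 1216, against 1648 of all 18171 members (9.07%). The change of both kinds is in part fixed by the filter.

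The share of contigs called was larger at higher levels, up to 100 FPKM. Between 1 and 5 FPKM 477 of 10473 contigs rose (4.55%) and 112 fell (1.07%). Between 5 and 20 FPKM 461 of 4993 rose (9.23%) and 176 fell (3.52%), and between 20 and 100 FPKM 237 of 2084 rose (11.4%) and 112 fell (5.37%). At 100 FPKM or more 49 of 621 rose (7.89%) and 24 fell (3.86%). The median standard error of the log2 difference was 0.296, 0.159, 0.137 and 0.126 in the same order, so the lowest class was measured least precisely. The median log2 difference of all contigs in a class was 0.18, 0.14, 0.11 and -0.02, so the shift above 0 lay in contigs under 100 FPKM. After median-of-ratios scaling rises outnumbered falls only from 1 to 5 FPKM, with 256 against 175. That scaling gave 163 against 323 between 5 and 20 FPKM, 66 against 197 between 20 and 100 and 14 against 43 above. Quantile normalization gave 212 against 212, 231 against 348, 130 against 201 and 46 against 33 in the same order of classes, so the split at 100 FPKM or more turned between these scalings.

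**Figure D3:**
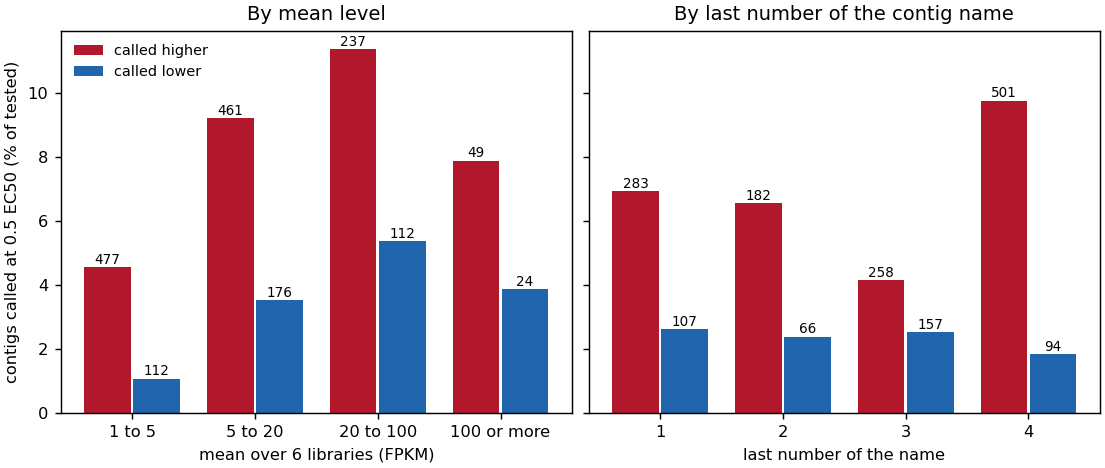
Contigs called higher (red) and lower (blue) at 0.5 EC50 as a percentage of the contigs tested, by mean level over the 6 libraries (left) and by the number that ends its name (right); numbers above the bars are contigs. In deposited values rises outnumber falls in every class, a split that median-of-ratios scaling turns in all classes but 1 to 5 FPKM on the left and name class 4 on the right.

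The sources used here do not explain the number, 1 to 4, that ends each contig name, and contigs of each number were detected unevenly between libraries. Whether 1 transcript can appear under several numbers is not known here, so all counts are of contigs and not of transcripts. Of the 6350 contigs ending in 1, 78.4% reached 1 FPKM in 0.5 EC50 replicate 1 and 67.3% in control replicate 1, against 54.4% to 61.8% in the other libraries of the comparison. Of the 9827 ending in 3, 69.5% reached 1 FPKM in control replicate 3, 63.3% in 0.5 EC50 replicate 2 and 60.6% in control replicate 2, against 46.0% to 54.2% in the rest. Of the 7749 ending in 4, 81.4% did so in 0.5 EC50 replicate 3, against 68.6% in both other exposed libraries and 57.9% to 61.5% in the controls. The 5214 contigs ending in 2 were spread most evenly over these 6 libraries, with 51.2% to 58.3%. Their high libraries were 0.2 EC50 replicate 3 and 0.1 EC50 replicate 3, with 75.2% and 73.7%. The share of the summed FPKM differed less, for example 35.4%, 34.0% and 34.6% at 0.5 EC50 and 35.7%, 32.8% and 34.5% in the controls for contigs ending in 1.

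**Figure D4:**
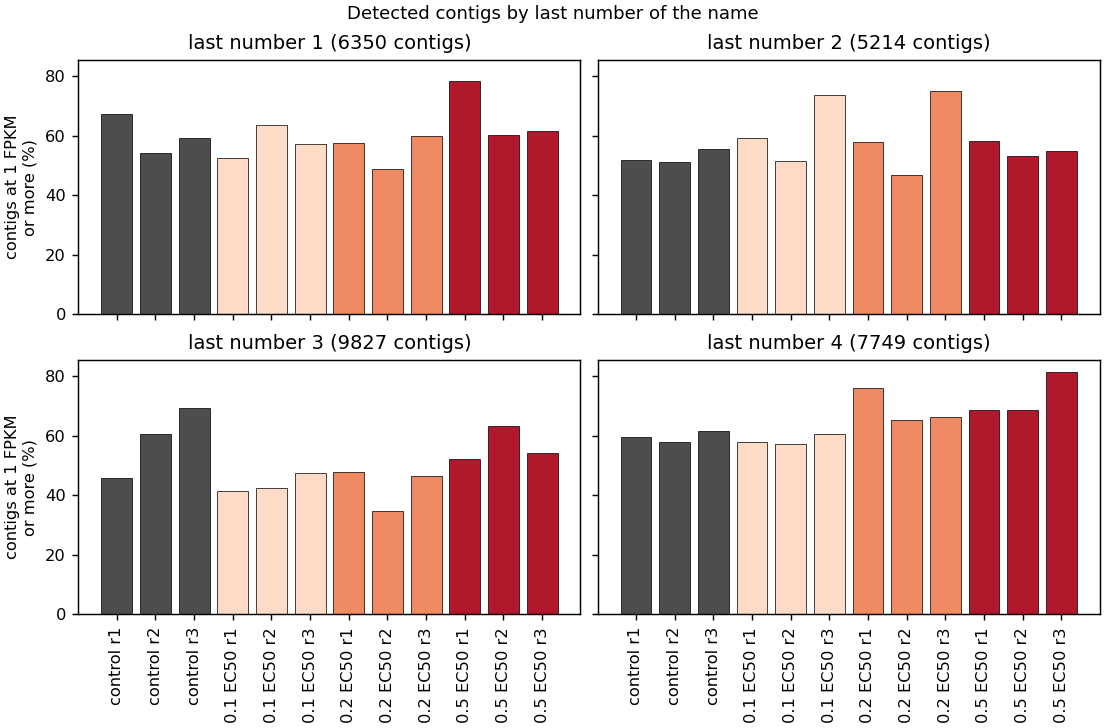
Percentage of contigs at 1 FPKM or more in each of the 12 libraries, 1 panel for each number that ends a name; r1 to r3 are replicates and colours are doses. Different libraries stand high in each panel, such as 0.5 EC50 replicate 1 (78.4%) for number 1 and 0.5 EC50 replicate 3 (81.4%) for number 4, while the controls and 0.5 EC50 lie between 51.2% and 58.3% for number 2.

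Calls moved with this number. Of the members ending in 4, 501 of 5128 rose (9.77%) and 94 fell (1.83%). Of those ending in 3, 258 of 6197 rose (4.16%) and 157 fell (2.53%). Numbers 1 and 2 gave 283 of 4076 rises (6.94%) with 107 falls (2.63%), and 182 of 2770 rises (6.57%) with 66 falls (2.38%). The median log2 difference was 0.22 for number 4, 0.11 for number 3, 0.15 for number 1 and 0.10 for number 2. For number 2, where none of the 6 libraries stands high, the shares called were 6.57% and 2.38%, against 6.74% and 2.33% of all members. Its share of rises of at least 2-fold was 0.939%, against 1.99% of all members, and after median-of-ratios scaling 1.95% were called higher, against 2.75%. After median-of-ratios scaling the counts were 127 higher and 189 lower for number 1, 54 and 124 for number 2, 121 and 243 for number 3, and 197 and 182 for number 4. The part of these uneven libraries in the calls was not tested.

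Several abundant contigs changed widely on average and were not called. With a mean of at least 20 FPKM, 25 contigs differed by at least 4-fold without a call, 15 of them higher and 10 lower at 0.5 EC50. All 10 lower ones belonged to the contigs held by control replicate 2. The 15 higher ones summed to 7499, 4681 and 7434 FPKM in the exposed replicates 1, 2 and 3. In the controls they summed to 80.1, 5976 and 1201 FPKM. By these sums control replicate 2 lay within the exposed range, and by the median contig it did not. The median level of the 15 was 0.236, 14.9 and 12.5 FPKM in control replicates 1, 2 and 3 and 82.0, 68.3 and 73.9 FPKM in the exposed ones. The groups overlapped in 5 of the 15. Control replicate 1 was the lowest control in 12 of the 15 and control replicate 2 the highest in 12. At 0.2 EC50 the sums were 892, 3696 and 6855 FPKM and at 0.1 EC50 3265, 6503 and 1056 FPKM, so these contigs also varied widely within the other doses. They were singled out after their values were seen.

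Some contigs were listed at 0 in every library of 1 group. In all 3 controls 19 contigs were listed at 0 while all 3 libraries at 0.5 EC50 were at 1 FPKM or more. Their levels at 0.5 EC50 ran from 1.02 to 6.60 FPKM, and 12 of the 19 passed the filter, of which 8 were called. All 19 were above 0 in at least 1 library at 0.2 EC50 and 16 in at least 1 at 0.1 EC50. The reverse, 0 in all 3 exposed libraries and at least 1 FPKM in all controls, held for 5 contigs with control levels of 1.11 to 3.69 FPKM, of which 4 passed the filter and were called. Of these 5 contigs, 4 were above 0 in some library at 0.2 EC50. Over all members 9.07% were called. Both sets here were chosen by these same values, so their calls are in part fixed by the choice and add no support. A value of 0 in this table may be a failed estimate, so no fold change is given.

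Values of the whole RNA pool overlapped between the groups. The 10 most abundant contigs held 20.6% ± 0.377 of the summed FPKM at 0.5 EC50 and 20.6% ± 1.01 in the controls (SD, n = 3; exact two-sided permutation p = 0.9). The 100 most abundant held 43.2%, 43.5% and 44.8% at 0.5 EC50 and 45.6%, 46.1% and 44.6% in the controls (exact permutation p = 0.2), values that overlap. The number of contigs that together hold 50% of the summed FPKM was 160, 155 and 141 at 0.5 EC50 and 134, 127 and 144 in the controls (exact permutation p = 0.2). Contigs at 1 FPKM or more numbered 18475, 18157 and 18419 at 0.5 EC50 and 16118, 16569 and 18261 in the controls (exact permutation p = 0.2), where control replicate 3 lay among the exposed libraries. With 3 libraries against 3 the smallest p this test can give is 0.1, so none of these values could pass 0.05. The contigs that rose held 6.69%, 6.51% and 6.11% of the summed FPKM at 0.5 EC50, against 4.23%, 3.78% and 3.91% in the controls. Those that fell held 2.01%, 1.94% and 2.00%, against 3.56%, 3.42% and 3.46%. Both sets were chosen by these values, and most of the pool lay in contigs that were not called.

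**Figure D5:**
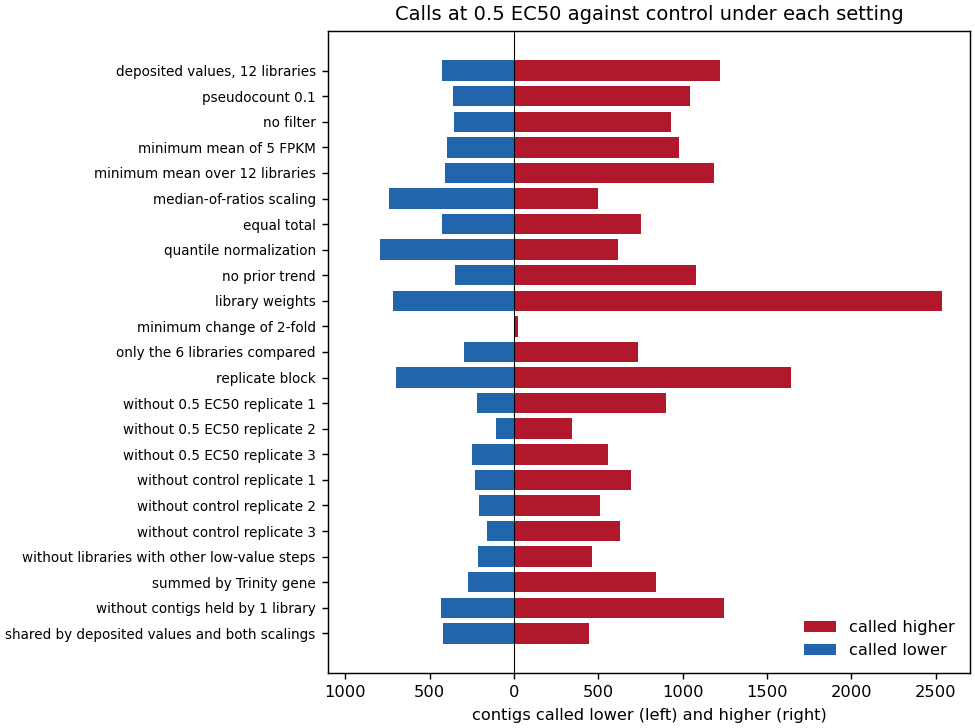
Number of contigs called lower (blue, left) and higher (red, right) at 0.5 EC50 against control under each setting; the top bar is the deposited values with 12 libraries in the fit (424 and 1224). Falls outnumber rises only after median-of-ratios scaling (738 and 499) and quantile normalization (794 and 619).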

How the data were processed

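Total RNA of whole algal cells was made into Illumina TruSeq RNA libraries, per the labels' protocols. The authors deposited 1 table of FPKM for 29140 contigs in 12 libraries. Contigs are named as Trinity names its assemblies. The sources used here give no aligner, estimator, version or filter. Library depth is unknown, so no counting interval is given.

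From the FPKM, log2(FPKM + 1) was tested in R 4.3.3 by limma 3.58.1 with a prior trend, over 12 libraries in 4 groups with 8 residual degrees of freedom, for contigs whose level averaged 1 FPKM or more across the 6 libraries compared. Fold changes on this scale understate the change of low contigs. Named contigs were the 2 called rises and 2 called falls without overlap that had the largest change of the mean in FPKM. The members and classes were chosen with earlier results of these data known. Replicate numbers were not taken to pair the libraries. Libraries whose low values (0.01 to 1 FPKM) step differently were those with under 3.5% of ratios to control replicate 1 in the fullest bin of 0.01 on the log2 scale, a limit chosen after seeing the data. Plots were drawn with matplotlib 3.10.9.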

Additional observations from a re-analysis of the deposited data

How the results depend on the processing

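All 4 named contigs kept their direction under every alternative run, and none was called in a test beyond 2-fold (adjusted p = 1). The total of 1648 calls moved to 3252 with library weights, 1028 with only the 6 libraries compared, 26 with a minimum change of 2-fold, 675 without the 4 libraries whose low values step differently, and 861 shared by deposited values and both scalings (the last chosen after seeing the data). Counts higher under those 5 settings were 2537, 733, 25, 463 and 443, and 751 with an equal total. Counts lower were 715 with weights, 1 with the 2-fold test and 212 without the 4 libraries. There were 499 higher and 738 lower after median-of-ratios scaling, against 619 and 794 after quantile normalization. At least 2-fold higher were 147 with a minimum mean of 5 FPKM, 240 after median-of-ratios scaling, 810 with weights, 194 without the 4 libraries and 219 shared by the scalings. At least 2-fold lower were 97, 238 and, after quantile normalization, 260, with 98 without the 4 libraries. Summing by Trinity gene, where 15295 genes were tested, gave 275 lower and 95 at least 2-fold lower. It merges contigs whose names coincide, whose changes were nearly uncorrelated, and is no check at the level of genes. Leaving out 1 library gave totals of 455 to 1117, with 346 to 899 higher, 109 to 248 lower, 189 to 330 at least 2-fold higher and 66 to 141 at least 2-fold lower. The replicate block gave 700 lower and 1643 higher. The deviations of same-numbered libraries from their groups correlated at 0.195, -0.189 and -0.152, so the numbers are not taken to pair them. The levels themselves correlated at 0.929, 0.853 and 0.924 between same-numbered libraries at 0.5 EC50 and control. The median log2 difference was 0.196 with a pseudocount of 0.1, 0.106 without a filter, 0.118 at 5 FPKM, 0.0265 and 0.018 after median-of-ratios and quantile scaling, 0.125 with an equal total, 0.114 without the 4 libraries and 0.114 to 0.184 without 1 library. The difference in summed FPKM turned from 13431 to -44619 after median-of-ratios scaling and was 1614 to 28609 without 1 library. The difference in the share of the 10 most abundant contigs was -0.0415 percentage points, and -0.54 to 0.466 without 1 library. The cause of these moves was not tested. Depth is unknown and its limits could not be measured.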

Other observations

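Whether contig names without the last number identify 1 transcript is not known here, since no sequence could be compared. Among the members 2205 such names were shared by several contigs, which gave 2711 pairs. Across these pairs the mean log2 level correlated at 0.108 and the log2 difference between 0.5 EC50 and control at 0.0156, a description across contigs, which are not independent. In 15 of the 2711 pairs both contigs were called, 11 in the same direction and 4 in opposite directions. Over all members 9.07% were called, 6.74% higher and 2.33% lower. With most calls being rises, pairs share a direction often, so no agreement is read from these counts. No Trinity gene had 2 or more members with the same last number (0 of 14416 gene names).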
